A study of Mus musculus with 24 samples.

Results

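Bile acid synthesis and hepatic bile acid uptake were described here through 10 genes: Cyp7a1, Cyp8b1, Cyp27a1, Cyp7b1, Baat, Slc10a1, Slco1b2, Nr1h4, Nr0b2 and Nr5a2. The members were all probes, controls left out, whose gene name on the array was one of these, which gave 16 probes of 56605, and 10 of 37074 gene names. Each of the 16 passed the filter on dim probes, which 32037 probes and 21331 genes passed in all.

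The livers came from 24 male C57Bl/6J mice, with 1 single-colour array for each mouse and 6 mice in each of 4 groups. LWT mice and LKO mice differ in hepatocyte PPARα, present in LWT and lacking in LKO by the title of the series. PPARα is the fatty acid sensor among the nuclear receptors. The allele, the promoter of any Cre and the age of the mice are not given in the sources used here. The treated groups, labelled Beta3, received 3 mg/kg of CL316243, which activates the beta3 adrenergic receptor, by gavage in 0.5% carboxymethyl cellulose. The vehicle groups received 0.5% carboxymethyl cellulose by gavage at the same hour, without the agonist. Treatment fell at Zeitgeber time 10 h and liver collection at 16 h, and all mice ate a standard diet freely. The comparisons ask how the agonist changed the liver in each genotype and whether the genotypes differed.

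Bile acids are made from cholesterol in hepatocytes, by a classical route that Cyp7a1 opens and an alternative route that Cyp27a1 and Cyp7b1 serve. Cyp8b1 steers the product towards cholic acid, and Baat joins bile acids to taurine or glycine. Slc10a1 (NTCP) and Slco1b2 take bile acids up from the portal blood. Bile acids bind Nr1h4 (FXR), which induces Nr0b2 (SHP), a receptor without a DNA-binding domain that represses Cyp7a1 and Cyp8b1, in part through Nr5a2 (LRH-1).

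The sequences below are those that the readings turn on. Cyp8b1, Cyp27a1 and Nr0b2 were each read by a single probe, and these are their 60-base probes, 5′ to 3′ as the scanner tables give them.
Cyp8b1: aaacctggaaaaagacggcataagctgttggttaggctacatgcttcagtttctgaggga
Cyp27a1: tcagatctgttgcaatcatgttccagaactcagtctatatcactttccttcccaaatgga
Nr0b2: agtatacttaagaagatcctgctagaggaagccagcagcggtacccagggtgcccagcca
Their positions in mm9 are chr9:121824595-121824654 on the minus strand, chr1:74782203-74782262 on the plus strand and chr4:133109694-133109753 on the plus strand. The exon or UTR at each position was not analysed here. None of the 3 shared 20 or more bases with another probe of the array.

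Slc10a1 had 2 probes that gave opposite readings, so 30 bases of each are shown, with capitals for a run of 20 bases that the table of promoters also holds elsewhere.
First Slc10a1 probe: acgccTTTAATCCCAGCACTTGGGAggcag
Second Slc10a1 probe: ccacaacctgcttcatgttgtaactcaaaa
The first, the brightest Slc10a1 probe (mm9 chr12:82056539-82056598, minus strand), is annotated to transcripts of 4 genes, Slc10a1, Med16, Spc24 and 4930402H24Rik. Its capitals also occur in promoter windows of 2 gene symbols, it shares at least 20 bases with 2 other probes, and its letters resemble the B1 repeat that is scattered through the mouse genome. The second (mm9 chr12:82054180-82054239, minus strand) is annotated to Slc10a1 alone and shares no such run with another probe. It is placed on another transcript of Slc10a1 than the first. Whether it reads every transcript of the gene was not analysed. The other 14 probes of the members shared none either. Slc10a1 is therefore described by its second probe, and the first is given beside it.

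The third sequence is the promoter of Nr0b2. It is shown because Nr5a2, which has TCAAGG as a form of its core site, fell with CL316243 in LWT, as Nr0b2 did. Whether these falls are linked was not tested. The window runs from 250 bases before the start site to 50 after it in RefSeq (GRCm38.p6 chr4:133553126-133553425, plus strand), with both matches to TCAAGG in capitals, 68 and 35 bases before the start site.
Nr0b2 promoter: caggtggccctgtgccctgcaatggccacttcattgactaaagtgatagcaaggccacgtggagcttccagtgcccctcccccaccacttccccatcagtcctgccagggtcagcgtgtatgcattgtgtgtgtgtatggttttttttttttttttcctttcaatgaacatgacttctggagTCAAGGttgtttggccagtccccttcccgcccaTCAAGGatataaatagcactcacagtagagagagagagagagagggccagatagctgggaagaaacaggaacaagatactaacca
TCAAGG was searched on both strands, and no other form of the Nr5a2 site was searched. A window without TCAAGG is therefore not shown to lack an Nr5a2 site. TCAAGG occurred in 14.4% of the 32851 windows of this length, and among the 7 members with an entry it occurred in Nr0b2 only. The promoter of Cyp8b1 (GRCm38.p6 chr9:121916256-121916555, minus strand) held no TCAAGG but 1 CAAAGTCCA, the core of Hnf4a sites, 67 bases before the start site. It is shown with that match in capitals because Cyp8b1 is the synthesis gene whose 2 effects lay farthest apart.
Cyp8b1 promoter: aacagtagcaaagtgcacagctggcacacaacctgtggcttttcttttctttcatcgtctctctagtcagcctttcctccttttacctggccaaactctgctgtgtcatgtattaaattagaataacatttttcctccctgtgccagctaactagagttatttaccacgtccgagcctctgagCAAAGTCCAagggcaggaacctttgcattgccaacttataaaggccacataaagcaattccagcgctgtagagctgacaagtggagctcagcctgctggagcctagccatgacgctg
CAAAGTCCA, searched on both strands, occurred in 0.475% of the windows. A match of letters is a description and shows no binding.

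Levels are log2 intensities relative to the 75th percentile of the same array, so they are negative for probes dimmer than that. A difference is called where limma's adjusted p is under 0.05. Counts of genes use the fit over 21331 genes, each by its brightest probe, and the adjusted p-values of the members' probes come from the fit over 32037 probes. Between 26985 and 34202 probes per array were well above background. The hepatocyte markers were at the same summed level throughout, 11.9 to 12.3 in all 4 groups. The Ppara level had medians of 6.23 and 6.92 in LWT mice and 5.57 and 5.07 in LKO mice (vehicle and CL316243), and no LKO mouse reached the lowest LWT mouse. For Ppara, LKO against LWT was -0.67 under vehicle (limma adjusted p = 0.161), not called, and -1.91 under CL316243 (limma adjusted p = 3.43e-07). The Ppara probe was not checked against the deleted part of the gene. The library of LKO CL316243 replicate 3 stood apart: its median correlation with its own group was 0.967, against 0.983 to 0.992 for the other 23. Where leaving it out changed a call of a member, or moved its LKO difference with CL316243 by over 1.5 times, the value without it is given beside the result.

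With CL316243, bile acid genes were lower or did not pass the test, apart from the reading of the first Slc10a1 probe. In LWT, Cyp7a1, Nr0b2, Nr5a2 and Slco1b2 fell and none of the 10 rose, where 19.1% of all genes tested were called lower and 19.1% higher. In LKO, Cyp7a1, Cyp8b1, Cyp27a1 and Nr1h4 fell and Slc10a1, by its first probe, rose, where 19.4% of all genes were called lower and 20.7% higher. With probes annotated to several genes left out, an alternative chosen after seeing the data, Slc10a1 joined the genes that fell, which made 5 lower and 0 higher in LWT and in LKO. The shares of all genes in that alternative are not given here. Without LKO CL316243 replicate 3, the genes that fell in LKO were Cyp7a1, Cyp8b1, Cyp27a1 and Nr5a2, and none was higher. In that fit, 17.8% of all genes were called lower in LKO and 18.9% higher. By the brightest probe of each, the median difference of the 10 was -0.52 in LWT and -0.40 in LKO, against 0.01 and 0.03 over all genes. By the same probes, the groups did not overlap for 4 members in LWT and for 2 in LKO, Cyp7a1 and Cyp8b1. Of all genes, 20.3% and 20.8% did not overlap. Slc10a1 enters the medians and these counts by its first probe. By its second probe, its groups did not overlap in LWT or in LKO, and its differences were -0.67 and -0.63. These are levels in whole liver, in which fewer cells of a type and less RNA per cell cannot be told apart.

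**Figure D1:**
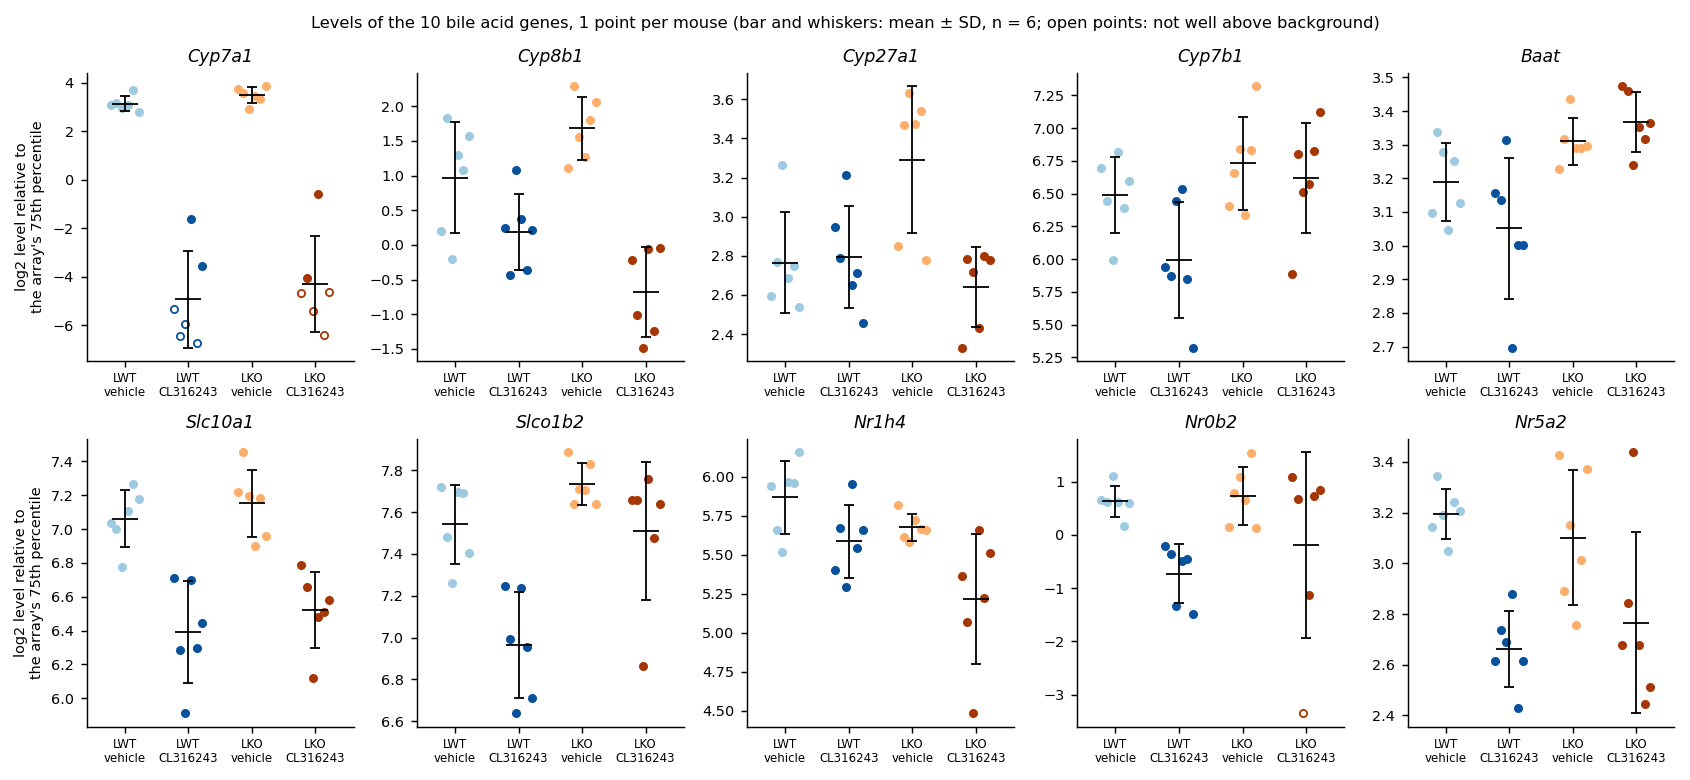
Level of each of the 10 genes in each mouse, as log2 intensity relative to the 75th percentile of its array, by genotype and treatment (bar and whiskers, mean ± SD, n = 6; open points, not well above background). Slc10a1 is shown by its second probe. Cyp7a1 lay at 2.79 or higher in all vehicle mice and at -0.59 or lower in all CL316243 mice.

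Cyp7a1, the rate-limiting enzyme of the classical route, had the largest differences of the 10 in both genotypes. In LWT vehicle mice its level was 2.79, 3.09 and 3.71 (lowest, median, highest), and in LWT CL316243 mice -6.74, -5.65 and -1.60. In LKO it was 2.93, 3.52 and 3.86 with vehicle and -6.39, -4.66 and -0.59 with CL316243. Every treated mouse was below every vehicle mouse of its genotype, and the treated mice spread far more widely. The signal was well above background on 2 of 6 treated arrays in each genotype, so the size of the fall is set partly by the background.

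Cyp7a1 fell by 8.08 on the log2 scale in LWT (SE 0.78, limma adjusted p = 6.08e-08). It fell by 7.78 in LKO (SE 0.78, limma adjusted p = 2.55e-07). As intensities, LWT mice went from 2274 to 4373 with vehicle to between 2.82 and 111 with CL316243. With normexp background correction the difference was -5.13 in LWT and -5.21 in LKO. On the 3 slides, each with 2 mice of every group, the LWT difference was -5.46, -9.35 and -9.43 and the LKO difference -8.13, -8.32 and -6.88. The difference between the effects was 0.30 (95% interval -1.99 to 2.59, limma adjusted p = 0.921), an interval wide enough to hold a sizeable difference in either direction. Because most treated arrays were not well above background, this interval and the spread over slides include scatter of the background. Whether the treated level differed between the genotypes cannot be read from them.

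The second Cyp7a1 probe, on another transcript of the gene, was well above background on all vehicle arrays, on 0 of 6 LWT CL316243 arrays and on 1 of 6 LKO CL316243 arrays. It was at least 3.51-fold lower with CL316243 in LWT, with each treated array set to its own value or, where that was lower, to the dimmest signal well above background on it (limma adjusted p = 8.45e-06). In LKO the fitted difference was -3.42 (SE 0.52, limma adjusted p = 2.66e-05), its size set partly by the background, with 1 treated mouse, at -2.66, inside the vehicle range.

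Cyp8b1, which sets the share of cholic acid, gave its clearest fall in LKO. Its level was -0.21, 1.19 and 1.84 (lowest, median, highest) in LWT vehicle mice and -0.43, 0.23 and 1.07 in LWT CL316243 mice. In LKO it was 1.1, 1.68 and 2.29 with vehicle and -1.48, -0.62 and -0.04 with CL316243. The LWT groups overlapped widely, and the LKO groups were apart. The LKO difference was -2.36 (SE 0.34, limma adjusted p = 1.67e-05), a level 5.13-fold lower (95% interval of the log2 difference -3.07 to -1.65). The LWT difference was -0.78 (SE 0.34, limma adjusted p = 0.0808). It was called with array weights (-1.09, adjusted p = 0.00562) and without LWT vehicle replicate 1, LWT vehicle replicate 3 or LWT CL316243 replicate 3 (adjusted p 0.0463, 0.0198 and 0.0376).

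For Cyp8b1 the difference between the effects (LKO minus LWT) was -1.58 (95% interval -2.59 to -0.57, limma adjusted p = 0.0572), not called. The LKO fall was the larger on each slide, at -3.06, -1.83 and -2.19 against -0.38, -0.70 and -1.25 in LWT. The difference between the effects was called with the row on the slide as a block (adjusted p = 0.0434), with trended and robust moderation (0.0494) and in 6 of 24 fits that left out 1 mouse. The 6 were LWT vehicle replicates 2 and 6, LWT CL316243 replicate 2, LKO vehicle replicate 1 and LKO CL316243 replicates 4 and 6.

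Cyp27a1, the mitochondrial sterol hydroxylase of the alternative route, was called lower with CL316243 in LKO. Its level was 2.54, 2.72 and 3.26 in LWT vehicle mice and 2.46, 2.75 and 3.21 in LWT CL316243 mice. In LKO it was 2.78, 3.47 and 3.63 with vehicle and 2.33, 2.75 and 2.80 with CL316243. LKO vehicle mice held the highest values, 4 of them above every other mouse, and the other 3 groups lay between 2.33 and 3.26. The LKO difference was -0.65 (SE 0.16, limma adjusted p = 0.00231), and that in LWT 0.03 (SE 0.16, limma adjusted p = 0.909). The difference between the effects, -0.68 (95% interval -1.14 to -0.22), was not called (limma adjusted p = 0.0784). It was called without LWT vehicle replicate 3, LKO vehicle replicate 1 or LKO vehicle replicate 6, and LKO against LWT under vehicle without the first or the last of these.

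Cyp7b1, the oxysterol hydroxylase of the alternative route, was not called for treatment. By its brighter probe the level was 5.99, 6.52 and 6.82 in LWT vehicle mice, 5.32, 5.90 and 6.53 in LWT CL316243 mice, 6.34, 6.74 and 7.32 in LKO vehicle mice and 5.89, 6.69 and 7.12 in LKO CL316243 mice. Treated LWT mice were mostly the lowest, and all groups overlapped. The LWT difference was -0.50 (SE 0.21, limma adjusted p = 0.0691) and the LKO difference -0.11 (SE 0.21, limma adjusted p = 0.705). The LWT difference was called under quantile normalization (adjusted p = 0.0361), on the deposited series table (0.0354) and with array weights (0.00825). It was also called in 4 of 24 fits that left out 1 mouse (lowest limma adjusted p = 0.0286). The second probe gave -0.45 and -0.28, also not called. In LWT it was called with array weights (-0.57, limma adjusted p = 0.0206) and without LWT CL316243 replicate 3 (-0.58, limma adjusted p = 0.0415).

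Baat, the conjugating enzyme, was not called for treatment by either of its probes. The brighter one read 3.05, 3.19 and 3.34 in LWT vehicle mice and 2.70, 3.07 and 3.31 in LWT CL316243 mice. In LKO it read 3.23, 3.29 and 3.44 with vehicle and 3.24, 3.36 and 3.47 with CL316243. The groups overlapped within each genotype. The differences were -0.14 in LWT and 0.06 in LKO (SE 0.08 each, limma adjusted p = 0.19 and 0.597), and the second probe gave -0.18 and 0.13.

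Slc10a1, the sodium-dependent uptake carrier, fell to a like extent in both genotypes by the probe annotated to it alone. That probe read 6.78, 7.07 and 7.26 in LWT vehicle mice and 5.91, 6.37 and 6.71 in LWT CL316243 mice. In LKO it read 6.90, 7.19 and 7.45 with vehicle and 6.12, 6.54 and 6.79 with CL316243. Treated and vehicle mice did not overlap in either genotype. The fall was 0.67 in LWT, which is 37.1% of the level (log2 difference -0.67, SE 0.13, limma adjusted p = 0.000335). In LKO the difference was -0.63 (SE 0.13, limma adjusted p = 0.000584), and the effects differed by 0.04 (95% interval -0.34 to 0.42).

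The first Slc10a1 probe, annotated to 4 genes, did not follow. It read 9.70, 9.78 and 9.90 in LWT vehicle mice and 9.86, 9.91 and 10.02 in LWT CL316243 mice, and 9.59, 9.72 and 10.001 against 9.77, 9.94 and 10.19 in LKO. Its differences were 0.14 in LWT (limma adjusted p = 0.151) and 0.21 in LKO (limma adjusted p = 0.0249). Under quantile normalization they were -0.10 and -0.03, and in the deposited series table -0.08 and -0.03, so their sign depended on the scaling. As intensities, LWT mice lay at 281446 to 325323 with vehicle and at 293982 to 318525 with CL316243. LKO mice lay at 277866 to 306620 and at 283962 to 329795, so the groups overlapped before scaling. The LKO call was also lost without LKO CL316243 replicate 3 (0.16, adjusted p = 0.0709).

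**Figure D2:**
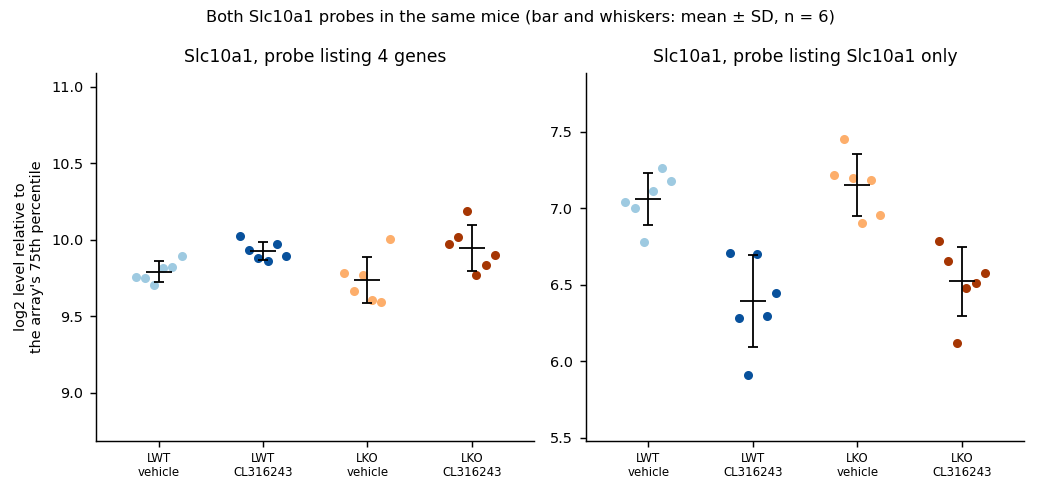
Level of the 2 Slc10a1 probes in the same 24 mice, as log2 intensity relative to the 75th percentile of the array (bar and whiskers, mean ± SD, n = 6), with the same span on both axes. On the left, the probe annotated to 4 genes differed by 0.14 and 0.21 with CL316243, and on the right, the probe annotated to Slc10a1 alone differed by -0.67 and -0.63.

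Slco1b2, a sodium-independent uptake carrier, fell in LWT. Its brighter probe read 7.26, 7.59 and 7.72 in LWT vehicle mice and 6.64, 6.98 and 7.25 in LWT CL316243 mice. In LKO it read 7.64, 7.71 and 7.89 with vehicle and 6.87, 7.65 and 7.76 with CL316243. The LWT groups did not overlap, while in LKO the treated mouse at 6.87, replicate 3, lay well below the other 5. The difference was -0.58 in LWT (SE 0.13, limma adjusted p = 0.00158) and -0.23 in LKO (SE 0.13, limma adjusted p = 0.186). Without LKO CL316243 replicate 3 the LKO difference was -0.10 (adjusted p = 0.523), and the effects differed by 0.48 (adjusted p = 0.0516). The effects differed by 0.35 (95% interval -0.04 to 0.74, limma adjusted p = 0.324), so the genotypes were not shown to differ, except in the fit with array weights (0.45, adjusted p = 0.0357). The second, dim probe, well above background on 4 of 6 LWT CL316243 arrays, gave -1.88 in LWT (SE 0.64, limma adjusted p = 0.0229). That call was lost without LWT vehicle replicate 4, LWT CL316243 replicate 1 or LWT CL316243 replicate 3 (-1.67 to -1.52). In LKO it gave -0.58, and 0.09 without LKO CL316243 replicate 3, neither called.

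Nr1h4, the bile acid receptor, was lower in LKO by its brighter probe. That probe read 5.52, 5.95 and 6.16 in LWT vehicle mice and 5.29, 5.60 and 5.96 in LWT CL316243 mice. In LKO it read 5.58, 5.66 and 5.82 with vehicle and 4.48, 5.29 and 5.66 with CL316243. The groups overlapped in both genotypes, and replicate 3 held the lowest LKO value. The differences were -0.28 in LWT (SE 0.15, limma adjusted p = 0.154) and -0.46 in LKO (SE 0.15, limma adjusted p = 0.0192). Without LKO CL316243 replicate 3 the LKO difference was -0.31 (adjusted p = 0.0519) and no longer called. The second probe gave -0.12 and -0.54, not called, and -0.21 in LKO without that mouse (adjusted p = 0.361). It was called in LKO without LKO CL316243 replicate 4 (-0.75, adjusted p = 0.0207).

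Nr0b2, the repressor that Nr1h4 induces, fell in LWT. Its level was 0.17, 0.62 and 1.11 in LWT vehicle mice and -1.49, -0.47 and -0.21 in LWT CL316243 mice, without overlap. In LKO it was 0.14, 0.72 and 1.53 with vehicle and -3.35, 0.71 and 1.09 with CL316243, where 4 treated mice sat within the vehicle range and the lowest, replicate 3, was not well above background. The LWT difference was -1.35 (SE 0.53, limma adjusted p = 0.0478), which is 2.56-fold. It stood close to the threshold: the call was lost in 16 of 24 fits that left out 1 mouse (differences from -1.45 to -1.2), and held without LWT CL316243 replicate 1, LKO vehicle replicate 5 or any 1 of the LKO CL316243 mice. It was also lost under quantile normalization, without the filter on dim probes and with slide as a block (adjusted p from 0.0512 to 0.0885). The fit shares 1 spread among the groups, and the SD was 0.30 and 0.55 in the LWT groups but 1.74 in LKO CL316243 mice. Without LKO CL316243 replicate 3 the LWT difference was still -1.35 (limma adjusted p = 0.00193). In LKO the difference was -0.92 (SE 0.53, limma adjusted p = 0.174), and the effects differed by 0.44 (95% interval -1.11 to 1.99). Without LKO CL316243 replicate 3 the LKO difference was -0.28 (adjusted p = 0.552) and the effects differed by 1.07 (adjusted p = 0.184), not called.

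Nr5a2, an activator of Cyp7a1 and Cyp8b1 transcription, fell in LWT. Its level was 3.05, 3.20 and 3.34 in LWT vehicle mice and 2.43, 2.65 and 2.88 in LWT CL316243 mice, without overlap. In LKO it was 2.76, 3.08 and 3.43 with vehicle and 2.45, 2.68 and 3.44 with CL316243, and the single high treated mouse was replicate 3. The LWT difference was -0.53 (SE 0.14, limma adjusted p = 0.0036) and that in LKO -0.34 (SE 0.14, limma adjusted p = 0.0531). Without LKO CL316243 replicate 3 the LKO difference was -0.47 and was called (adjusted p = 0.00188). It was also called without LKO vehicle replicate 2 or 4, and in 7 of the 12 settings run on single probes: normexp, quantile normalization, the stricter filter on dim probes, slide as a block, the deposited series table, trended and robust moderation, and array weights. The effects differed by 0.20 (95% interval -0.20 to 0.60, limma adjusted p = 0.64).

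**Figure D3:**
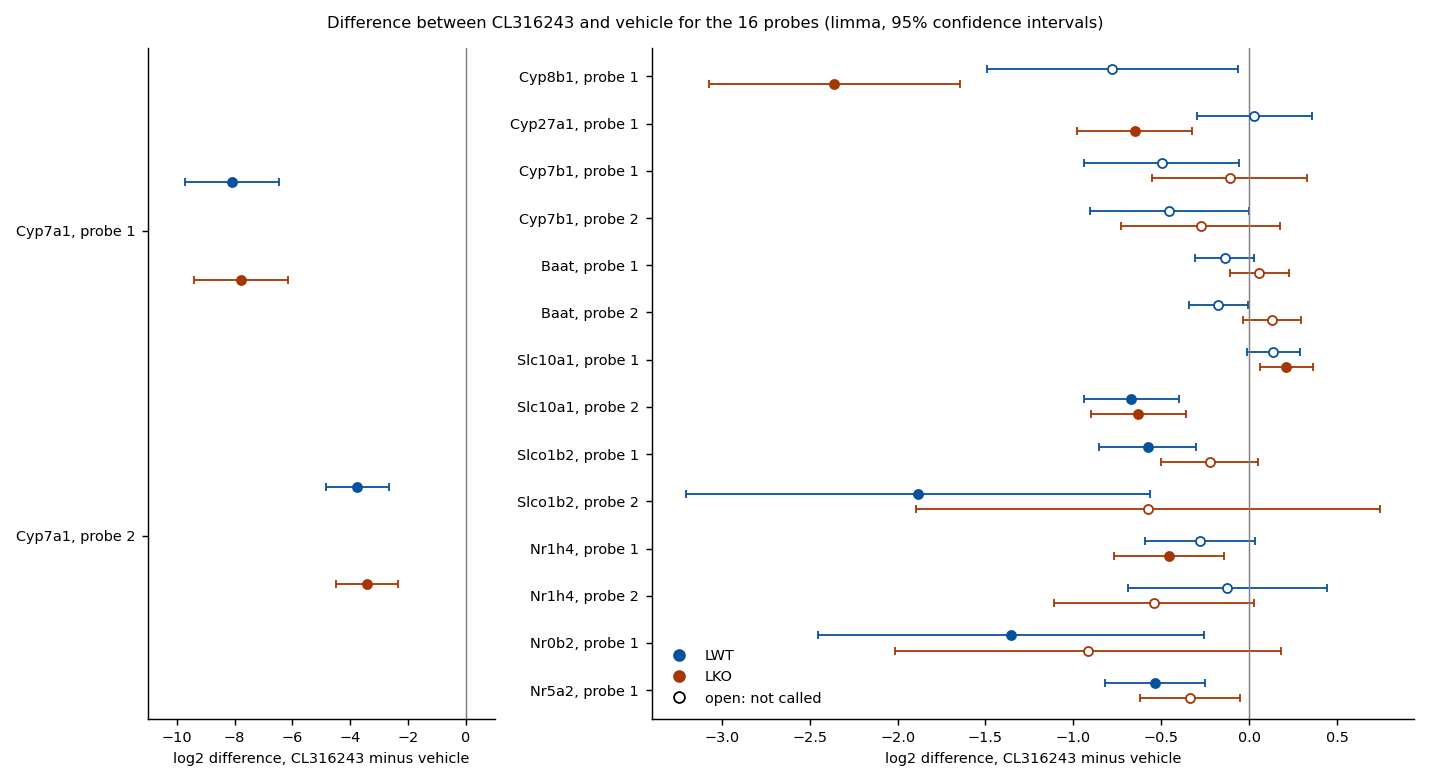
Log2 difference between CL316243 and vehicle mice for the 16 probes in LWT and LKO, with 95% confidence intervals from limma; filled points are called and open points not. Probe 1 is the brighter probe of a gene. Of the intervals, those of Cyp7a1 lie farthest from 0, at -8.08 and -7.78 for probe 1.

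The test of the genotype difference itself called none of the 10 members (limma; 2, Cyp8b1 and Cyp27a1, at an unadjusted p under 0.05), where 5.4% of all genes were called. Under vehicle, LKO against LWT likewise called none of the 10 (limma; 2 at an unadjusted p under 0.05), where 1.18% of all genes were called. The vehicle differences closest to the threshold were those of Cyp27a1, 0.53 (SE 0.16, limma adjusted p = 0.152), and Cyp8b1, 0.72 (SE 0.34, limma adjusted p = 0.555). Under CL316243, Baat, Cyp7b1 and Slco1b2 were higher in LKO than in LWT and none of the 10 was lower, where 7.56% of all genes were called higher and 8.3% lower. The median over the 10 was 0.21, against 0.01 over all genes.

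Baat under CL316243 was higher in LKO by both probes, 0.32 (SE 0.08, limma adjusted p = 0.00872) and 0.38 (SE 0.08, limma adjusted p = 0.00176). By the second, all 6 LKO mice, from 0.96 to 1.21, were above all 6 LWT mice, from 0.45 to 0.83. Slco1b2 was higher by 0.55 (SE 0.13, limma adjusted p = 0.00615). Cyp7b1 was higher by 0.63 (SE 0.21, limma adjusted p = 0.0474), and its second probe by 0.61 (limma adjusted p = 0.0641). The Cyp7b1 call was lost in 18 of 24 fits that left out 1 mouse, among them that without LKO CL316243 replicate 3 (0.65, limma adjusted p = 0.0512). It held in 6, those that left out LKO CL316243 replicate 1, LWT CL316243 replicate 3 or 4, LWT vehicle replicate 3, or LKO vehicle replicate 4 or 6. In a fit of the CL316243 groups alone, limma called none of the 3 (adjusted p 0.0534 for Slco1b2, 0.0654 for Baat and 0.117 for Cyp7b1) by their brighter probes. The second Baat probe was called in that fit and in each of the 12 settings run on single probes (highest adjusted p 0.0108). Nr0b2 under CL316243 was 0.53 higher in LKO (limma adjusted p = 0.572), and without LKO CL316243 replicate 3 it was 1.17 higher and called (adjusted p = 0.0196).

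The remaining genes of the pathway were taken as 3 lists. Of 17 further genes of synthesis and conjugation, all tested, 4 rose and 3 fell in LWT and 3 rose and 6 fell in LKO (medians 0.18 and -0.03). Of all genes, 19.1% rose and 19.1% fell in LWT and 20.7% rose and 19.4% fell in LKO. Without LKO CL316243 replicate 3, 1 synthesis gene rose and 6 fell in LKO, where 18.9% of all genes were higher and 17.8% lower. In LWT, Acot8, a peroxisomal thioesterase, rose by 1.39 (adjusted p = 3.74e-11), and Hsd17b4 and Slc27a2, of peroxisomal side-chain oxidation and acyl-CoA activation, rose by 0.80 and 0.38. Akr1d1, the steroid reductase that shapes the bile acid ring, fell (-0.79), as did Cyp2c70 (-0.52), which makes muricholic acids, and Hsd3b7 (-0.42), an early step of the classical route. In LKO, the signal of Ch25h, cholesterol hydroxylase of the oxysterol route, stood well above background on 0 vehicle arrays and on 5 of 6 CL316243 arrays. It was at least 3.47-fold higher with CL316243 by the bound used for Cyp7a1 (limma adjusted p = 0.0256), and was not called without LKO CL316243 replicate 3 or with normexp. Cyp39a1 rose by 1.03 and Cyp2c70 by 0.42, the latter not called in 9 of 24 fits that left out 1 mouse, LKO CL316243 replicate 3 among them, while Akr1d1 fell by 1.28 (adjusted p = 4.51e-07). Npc1, an exporter of lysosomal cholesterol (-0.73), and Acox2, the first oxidase of side-chain shortening (-0.60), fell too.

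The effects differed between the genotypes for 4 of these 17 genes, where 5.4% of all genes were called. The difference (LKO minus LWT) was -1.42 for Acot8 (limma adjusted p = 3.59e-08), -0.90 for Hsd17b4 (2.83e-05), -0.36 for Slc27a2 (0.0293) and 0.94 for Cyp2c70 (0.0166). Mean levels of Acot8 were 3.69 and 5.08 in LWT and 3.09 and 3.06 in LKO (vehicle and CL316243). Those of Cyp2c70 were 7.99 and 7.47 in LWT and 7.86 and 8.28 in LKO, opposite in direction. Slc27a2 was not called for this difference in the deposited series table or without LWT vehicle replicate 2 or 3.

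Of 14 transport genes, 13 were tested (Slc51a was not above background). In LWT 1 rose and 6 fell, and in LKO 3 rose and 5 fell (medians -0.27 and -0.20), where 19.1% of all genes were higher and 19.1% lower in LWT and 20.7% and 19.4% in LKO. Abcb4, the phospholipid exporter of the canaliculus, rose in LWT by 1.13 (adjusted p = 1.16e-05) and in LKO by 0.55 (adjusted p = 0.01). The cholesterol exporters Abcg8 and Abcg5 fell in both, with differences of -1.32 and -1.3 for Abcg8 and -0.75 and -0.91 for Abcg5. Slco1a1 fell in both by its brighter probe (-0.73 in LWT, -0.55 in LKO with adjusted p = 0.00214), while its second probe gave -0.20 and -0.22 and was not called. In LKO, Slco1a4 fell by 0.98, Abcc4, a basolateral exporter, rose by 0.63 and Slco2b1 rose by 0.21, the last with a second probe at -0.28 and not called. The genotype difference was called for none of the 13 (limma, with 1 at an unadjusted p under 0.05), where 5.4% of all genes were called.

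Of 21 regulators, 19 were tested (Fgf15 and Vdr were not above background). In LWT 5 rose and 5 fell, and in LKO 7 rose and 5 fell (medians 0.11 and 0.03), beside the same shares of all genes, 19.1% and 19.1% in LWT and 20.7% and 19.4% in LKO (higher and lower). Without LKO CL316243 replicate 3, 6 regulators rose and 6 fell in LWT, and 7 rose and 4 fell in LKO. In that fit the shares of all genes were 20.9% and 20.8% in LWT and 18.9% and 17.8% in LKO. Insig2, which retains sterol sensors in the endoplasmic reticulum, rose by 2.99 in LWT (adjusted p = 4.13e-09) and 2.39 in LKO (adjusted p = 2.94e-07). Prox1, a corepressor of Nr5a2 and Hnf4a, rose by 1.37 in LWT and 1.28 in LKO (adjusted p = 3.35e-07) by its brightest probe, while another probe gave 0.31 and 0.07 and was not called. The clock repressor Nfil3 rose by 1.13 in LWT and 1.68 in LKO, and the clock activator Dbp fell (differences -2.16 and -2.17). In LWT, Ppargc1a, a coactivator (-1.47), and Klb, the co-receptor for Fgf15 (-1.28), fell. In LKO, Gpbar1, the membrane bile acid receptor, rose by 1.51, while Nr1d1 and Nr1i3 fell (differences -1.05 and -1.0). The LKO call of Nr1d1 (adjusted p = 0.0464) was lost in 16 of 24 fits that left out 1 mouse, and the difference was -0.68 without LKO CL316243 replicate 3.

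The genotype difference was called for 4 of the 19 regulators tested, where 5.4% of all genes were called. It went with a larger fall in LWT or a rise in LKO for each. It was 0.77 for Mafg (limma adjusted p = 1.73e-05), a repressor of bile acid synthesis genes, and 0.66 for Fgfr4 (0.0293), the receptor that acts with Klb. It was 2.09 for Ppargc1a (0.0296) and 0.92 for Bhlhe40 (0.0274). Mean levels of Fgfr4 were 4.03 and 2.99 in LWT and 4.07 and 3.68 in LKO (vehicle and CL316243), and those of Mafg 5.18 and 4.35 against 5.08 and 5.02. Of the other Fgfr4 probes, 1 gave 0.65 and was called and 1 gave 0.31 and was not. Ppargc1a lost the call in 6 of 24 fits that left out 1 mouse, Fgfr4 in 5 and Bhlhe40 in 1. Without LKO CL316243 replicate 3, the genotype difference was called for 5 regulators, each higher. In that fit 3.06% of all genes were called higher and 4.09% lower.

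**Figure D4:**
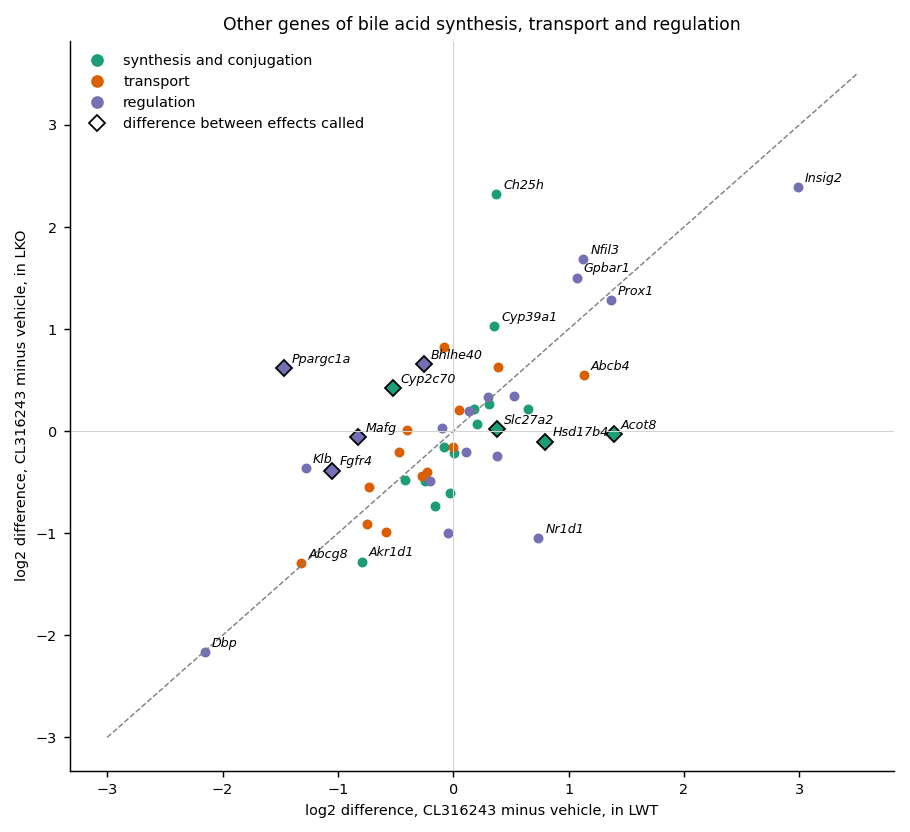
Log2 difference between CL316243 and vehicle in LWT (horizontal) and in LKO (vertical) for the 49 further genes tested, coloured by list, with a dashed line of equal effects; black-edged diamonds mark genes with a called difference between the effects. Dbp (-2.16 and -2.17) and Insig2 (2.99 and 2.39) lie at the ends near the line, and Acot8 (1.39 in LWT) lies near 0 in LKO.

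Among markers of other liver cells, those of cholangiocytes, which also carry bile acids, moved most with the LKO groups. Of 6 cholangiocyte markers, 3 (Sox9, Spp1 and Slc10a2, named after their values were seen) rose with CL316243 in LKO and 1, Sox9, in LWT. The summed level of the 6 ranged from 3.30 to 4.05 in LKO vehicle mice and from 4.88 to 5.45 in LKO CL316243 mice, and from 3.62 to 4.18 and 3.66 to 4.93 in LWT. Of 6 hepatocyte markers, 1, Apoa1, fell in LKO (-0.26) and 0 changed in LWT. Of 6 Kupffer cell markers 1 rose in LWT, of 4 endothelial markers 2 rose in LWT and 1 in LKO, and of 4 stellate cell markers 1 fell in LWT. Beside these counts, 19.1% of all genes rose and 19.1% fell in LWT, and 20.7% rose and 19.4% fell in LKO. All 6 cholangiocyte markers passed the filter. The part of other cell types in the members' results was not tested.

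The genes whose mean-centred levels lay closest to those of Cyp7a1 over the 24 arrays, by the root mean square difference, were Hsd3b5, Nrep, Dclk3, Serpina9 and Fam198a. Their differences from Cyp7a1 were 1.79 to 2.51, where the spread of Cyp7a1 itself was 4.18. With CL316243, the difference of Hsd3b5 was -5.65 in LWT and -4.93 in LKO. For Fam198a, well above background on 1 and 2 of 6 treated arrays, a second probe gave 0.42 and -0.92 and was not called. The genes closest to Cyp8b1 were Wnt5b, Il13ra2, Tfrc, Madd and Gypc, at 0.53 to 0.62, where the spread of Cyp8b1 was 1.05. Wnt5b fell in both genotypes (-1.07 in LWT and -2.0 in LKO), and Tfrc fell in LKO (-1.73) with -0.44 in LWT, not called there. Of these 5, Tfrc alone had a called difference between the effects (-1.29, limma adjusted p = 0.00822). For Madd, a second probe gave -0.27 and -0.42 where the brightest gave -1.43 and -1.53.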

How the data were processed

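Per the file headers, the authors extracted spot intensities with Agilent's Feature Extraction software, version 10.10.1.1, and the deposited processed intensity is background-subtracted on a linear scale. The deposited series table holds log2 values with equal quantiles in every column; its steps are not given in the sources used here, and it served as an alternative. Processed intensities were set to log2 after removing outlier spots (100 values missing among kept probes), averaged per probe and centred on each array's 75th percentile. Kept probes stood well above background in 4 or more of the 6 mice of some group and had 3 or more values per group. limma 3.58.1 in R 4.3.3 fitted 1 mean per group to 24 arrays (prior df 2.18, residual df 20), with Benjamini-Hochberg adjustment within each of 5 comparisons, tested on simulated data. Samples were grouped by the genotype and treatment labels. No column lacked a sample. The 24 arrays lay on 3 slides of 2 mice per group. The number of arrays limits the precision. Alternatives were 12 planned settings, each mouse left out in turn, and 3 chosen after seeing the data (probes annotated to several genes left out; the row as a block; the list counts without LKO CL316243 replicate 3). Members, lists and tests were chosen with earlier results of these data known. Named were all 10 members, up to 3 highest and 3 lowest called genes per list in LWT and in LKO, all list genes called for the difference between effects, the 5 genes most like Cyp7a1 and Cyp8b1, and Ppara. Promoter sequences are from RefSeq (GRCm38.p6) for 7 of 10 members, without Cyp7a1, Cyp7b1 and Baat; probe positions are mm9, from the files.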

Additional observations from a re-analysis of the deposited data

Results flagged for a closer look

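In 6 of 64 sets of 6 mice (16 probes in 4 groups), 1 mouse stood far from the other 5 by Dixon's criterion, which chance meets in about 1 of 20 such sets. LKO CL316243 replicate 3, the library that stood apart from its group, was the low mouse for both Slco1b2 probes, at 6.87 (nearest other mouse 7.48) and at -5.56 (nearest -2.16). LKO CL316243 replicate 6 was high for the second Cyp7a1 probe, at -2.66 (nearest -5.57), and was the 1 treated LKO array well above background there. LWT vehicle replicate 3 was high for Cyp27a1, at 3.26 (nearest 2.77), and LWT vehicle replicate 4 for the second Slco1b2 probe, at 0.36 (nearest -0.95). LWT CL316243 replicate 4 was low for the second Baat probe, at 0.45 (nearest 0.70). No explanation was tested for these mice.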

How the results depend on the processing

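Of the counts of members called, 4 in LWT, 5 in LKO, 0 for the difference between effects, 0 under vehicle and 3 under CL316243, leaving out 1 mouse gave 3 to 5, 4 to 6, 0 to 1, 0 to 1 and 2 to 4. With array weights the counts were 7 in LWT, 2 for the difference between effects (Cyp27a1, Slco1b2) and 1 under vehicle (Cyp27a1). Shares of all genes called are not given here for this and the other settings, so these counts have no background beside them. Requiring also a 1.5-fold change left 2 in LWT, 3 in LKO and 1 under CL316243. Averaging all kept probes of a gene left 1 under CL316243 (Baat), and fitting the compared groups alone left 0; that fit cannot give the difference between effects. The row as a block gave 1 for that difference (Cyp8b1). With the replicate number as a block, 1 member was called for the difference between effects and 1 under vehicle, Cyp27a1 in each case; Nr0b2 in LWT (adjusted p = 0.0552) and Cyp7b1 under CL316243 (0.0703) lost their calls and Nr1h4 under CL316243 gained one (0.0288). Numbers did not pair the mice: 9 of 36 same-numbered pairs correlated above 0.1 (-0.18 to 0.42). The causes were not tested. Signs changed, always in values not called there, for the first Slc10a1 probe under quantile normalization (-0.097 in LWT, -0.028 in LKO), in the series table (-0.081, -0.027) and, LKO against LWT under CL316243, with array weights (-0.0300). So did Cyp27a1 in LWT (-0.019 under quantile normalization, -0.021 in the series table), the Cyp7a1 difference between effects (-0.085 with normexp, -0.0103 in the series table), its second probe under vehicle (-0.0904 with array weights) and Slco2b1 in LKO (-0.036 by the mean of its probes). Leaving out 1 mouse, these values crossed 0: Cyp27a1 in LWT (-0.055 to 0.128), Cyp7b1 in LKO (-0.212 to 0.036) and the second Slco1b2 probe in LKO (-0.863 to 0.089). The difference between effects did so for Cyp7a1 (-0.44 to 0.97 and, by its second probe, -0.281 to 0.568) and the second Slc10a1 probe (-0.057 to 0.12). LKO against LWT did so under vehicle for Nr0b2 (-0.066 to 0.213) and the second Cyp7a1 probe (-0.108 to 0.31), and under CL316243 for Nr5a2 (-0.0301 to 0.168), Cyp7a1 (-0.099 to 1.31 and -0.149 to 0.700) and the first Slc10a1 probe (-0.028 to 0.056). The falls of Cyp7a1 and Slc10a1 (second probe) in both genotypes, of Nr5a2 and Slco1b2 (brighter probe) in LWT and of Cyp8b1 and Cyp27a1 in LKO were called in each of the 12 settings run on single probes and the 24 fits that left out 1 mouse. Signal over background limits Cyp7a1 in treated mice, where 4 of 6 arrays per genotype were not well above background.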
